A study of Rattus norvegicus with 9 samples.

Results

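The genes described here are 35 reactive astrocyte genes, chosen by name as the rows whose gene symbol is one of a fixed list of markers of reactive astrocytes. Gfap, Serpina3n and the genes of complement, of MHC class I and of the STAT3 pathway were left out of the list. The symbols of 34 of the 35 were found among the 23953 genes of the count table. The remaining gene, Chi3l1, stands in the table under its other name, Chil1, and is given separately and left out of the counts. The rule itself uses names and no measured value, but the list was drawn up with earlier results of these data known.

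Astrocytes that meet injury or inflammation become reactive: they enlarge, alter their cytoskeleton and switch on secreted, adhesive and metal-handling proteins. Sets of such genes have been used as panels, with pan-reactive genes shared by several stimuli, A1 genes first described after inflammation and A2 genes first described after ischaemia. Many of these promoters are known to respond to the transcription factors NF-kB, STAT3 and C/EBP. Reactive astrocytes are a well known component of the scar that forms in injured spinal cord.

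RNA-seq was carried out on neural stem cells (NSCs) labelled as taken from the spinal cord of rats, which the study's methods describe as newborn. In all groups the cells were held in differentiation medium. The Con group received no exosomes (n = 3). The Exo group received exosomes, small secreted vesicles, of bone marrow mesenchymal stem cells (BMSCs), which by the study's methods carried an empty lentiviral vector (n = 3). The pLV-Exo-Wnt5a group received exosomes of BMSCs carrying a lentiviral vector for Wnt5a, a secreted Wnt ligand of the non-canonical branch (n = 3). The 3 comparisons ask what exosomes did to NSCs (Exo against Con), what the Wnt5a vector in the donor cells added (pLV-Exo-Wnt5a against Exo), and what the sum of both was (pLV-Exo-Wnt5a against Con). Each library enters more than 1 comparison, so the comparisons are not independent of each other. Nothing in the labels states that the libraries came from separate cultures, so the p-values measure the spread between libraries, which may be technical.

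The 9 libraries held 32765138 to 40427647 counts, and 3 counts, taken as the floor of detection, equalled 0.0742 to 0.0916 CPM (counts scaled to the library total). Levels below are CPM on library sizes scaled by TMM, and they are not compared between genes, whose lengths were not used. The rows carry gene names in mouse style, and the NCBI gene number was that of a rat gene in the RefSeq annotation for 0 of the 34 members, although the labels name the rat. The genome the reads were mapped to is not given in the sources used here. Of 10 listed Hox genes that mark spinal cord, 3 were in the table, Hoxa7, Hoxc6 and Hoxc9, each with at most 2 counts in any library. The 8 listed forebrain transcription factors summed to 524.3 to 652.3 CPM, so the spinal cord label was not met by these markers. The 15 listed markers of resting astrocytes summed to 6309 to 7581 CPM over the 9 libraries, and the neuronal list to 3482 to 4448 CPM. Markers of several cell types were thus present, and in such bulk libraries fewer cells of a type and less RNA per cell cannot be told apart.

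Promoters are shown first, and the rule read names and no sequence. Many of these promoters were known to respond to some of the factors searched for, so the motif shares are not independent of the choice. The organism of the labels was followed, so these are promoters of rat genes with the same symbol. RefSeq promoters of the rat assembly GRCr8 were found for 29 of the 35 genes by symbol, and the 250 bases before the start site were searched on both strands. The motif of NF-kB was written GGNNTTTCC, that of STAT TTCNNNGAA, that of C/EBP TTGCNNAA and that of AP-1 TGANTCA. The 4 promoters printed here, all on the minus strand, are those of Lcn2 (chr3:36081781-36082030), Steap4 (chr4:27054770-27055019), Vcam1 (chr2:206742784-206743033) and Ggta1 (chr3:39206587-39206836). Steap4 was shown because it held 3 of the 4 motifs, Lcn2 and Vcam1 because each held matches to 1 of them, and Ggta1 because it passed the adjusted threshold in both comparisons of pLV-Exo-Wnt5a and held none. Capitals mark the matches.
Lcn2: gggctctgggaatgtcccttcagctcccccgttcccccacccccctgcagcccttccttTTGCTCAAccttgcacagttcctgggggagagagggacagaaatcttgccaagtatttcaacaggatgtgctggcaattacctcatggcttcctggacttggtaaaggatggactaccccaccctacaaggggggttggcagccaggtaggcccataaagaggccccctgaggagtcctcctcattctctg
Steap4: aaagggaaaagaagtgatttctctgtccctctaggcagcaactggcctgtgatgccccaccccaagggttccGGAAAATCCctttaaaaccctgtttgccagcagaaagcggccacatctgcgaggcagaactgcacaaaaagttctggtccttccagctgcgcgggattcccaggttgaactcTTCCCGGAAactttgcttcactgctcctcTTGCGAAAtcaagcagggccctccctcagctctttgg
Vcam1: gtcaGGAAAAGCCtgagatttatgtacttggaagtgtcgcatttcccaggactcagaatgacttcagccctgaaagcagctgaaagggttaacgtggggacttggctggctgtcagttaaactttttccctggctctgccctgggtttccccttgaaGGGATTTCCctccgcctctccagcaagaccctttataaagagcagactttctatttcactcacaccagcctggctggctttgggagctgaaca
Ggta1: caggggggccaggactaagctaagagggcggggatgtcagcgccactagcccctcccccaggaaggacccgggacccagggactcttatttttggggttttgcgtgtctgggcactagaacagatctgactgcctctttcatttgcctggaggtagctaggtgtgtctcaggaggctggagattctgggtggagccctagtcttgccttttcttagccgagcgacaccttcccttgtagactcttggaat
The capitals are a C/EBP match in Lcn2, matches to NF-kB, STAT and C/EBP in that order in Steap4, and NF-kB matches in Vcam1.

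The NF-kB motif was in 4 of the 29 promoters (13.8%), those of Anxa1, Icam1, Steap4 and Vcam1, against 5.19% of all 33469 promoters of this length. The C/EBP motif was in 6 (20.7%, against 9.22% of all), those of Anxa1, Cp, Lcn2, Ptgs2, Ptx3 and Steap4. The STAT motif was in 3 (10.3%, against 7.67%), those of Emp1, Icam1 and Steap4. The AP-1 motif was also in 3 (10.3%, against 6.34%), those of Anxa2, Aspg and Emp1. These are descriptions of letters in a window and are no sites of binding. Ggta1, Hopx, Timp1, Tgm1 and Tm4sf1 held no match to any of them, and Cebpd, Slc39a14, Sulf1, Cd109, S100a10 and Clcf1 were without a promoter in the table.

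In pLV-Exo-Wnt5a against Exo, reactive astrocyte genes stood mostly higher with the Wnt5a vector. Each gene was fitted over the 6 libraries of the 2 groups by edgeR's quasi-likelihood test, and Q is its p-value after Benjamini-Hochberg adjustment over all genes tested. Cebpd, Slc39a14, Ggta1 and Hopx rose at Q under 0.05, and Cebpd alone also passed the study's limit for a differentially expressed gene (DEG), a fold change above 2 or below 0.5. Of the 34 genes listed, 28 passed the filter on low counts, 23 of them with a fold change above 1 and 5 below it, with a median log2 fold change of 0.58, against 0.00 for all 15132 genes tested. Without the second Exo library, or without the first pLV-Exo-Wnt5a library, 0 members were at Q under 0.05. DESeq2 on the same libraries put 11 members at adjusted p under 0.05, the same 4 with Anxa2, Icam1, Lcn2, Sulf1, Tgm1, Timp1 and Vcam1, and called 6 of them DEGs: Cebpd, Icam1, Lcn2, Sulf1, Tgm1 and Timp1. Of all genes to which DESeq2 gave an adjusted p, 1.2% were higher under 0.05 and 0.477% were DEGs. Without the filter on low counts, edgeR put 13 at Q under 0.05 and called 6 DEGs: Cebpd, Lcn2, Steap4, Sulf1, Tgm1 and Timp1. In that fit 0.763% of all genes were higher at Q under 0.05 and 0.298% were DEGs. By edgeR with the filter, DEGs made up 1 of the 28 members and 0.159% of all genes, and genes higher at Q under 0.05 made up 4 of the 28 and 0.344% of all genes. At a looser threshold, an unadjusted p under 0.05 with an absolute log2 fold change above 0.58, 11 members were higher and 0 lower, against 1.51% of all genes higher and 1.98% lower.

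The 3 libraries of pLV-Exo-Wnt5a lay wholly above the 3 of Exo for 13 of the 28 members, against 7.5% of all genes, and wholly below for 1, Emp1, against 8.9% of all genes. Lcn2 and Tm4sf1 passed the filter through the pLV-Exo-Wnt5a libraries alone, so they had to differ, and Hspb1 was also thinly counted. Among the 25 members with at least 10 counts in every library of this comparison, 20 were higher, the median log2 fold change was 0.54 and 9 passed the looser threshold, all upward, against 1.28% of all genes so counted that passed it upward.

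**Figure D1:**
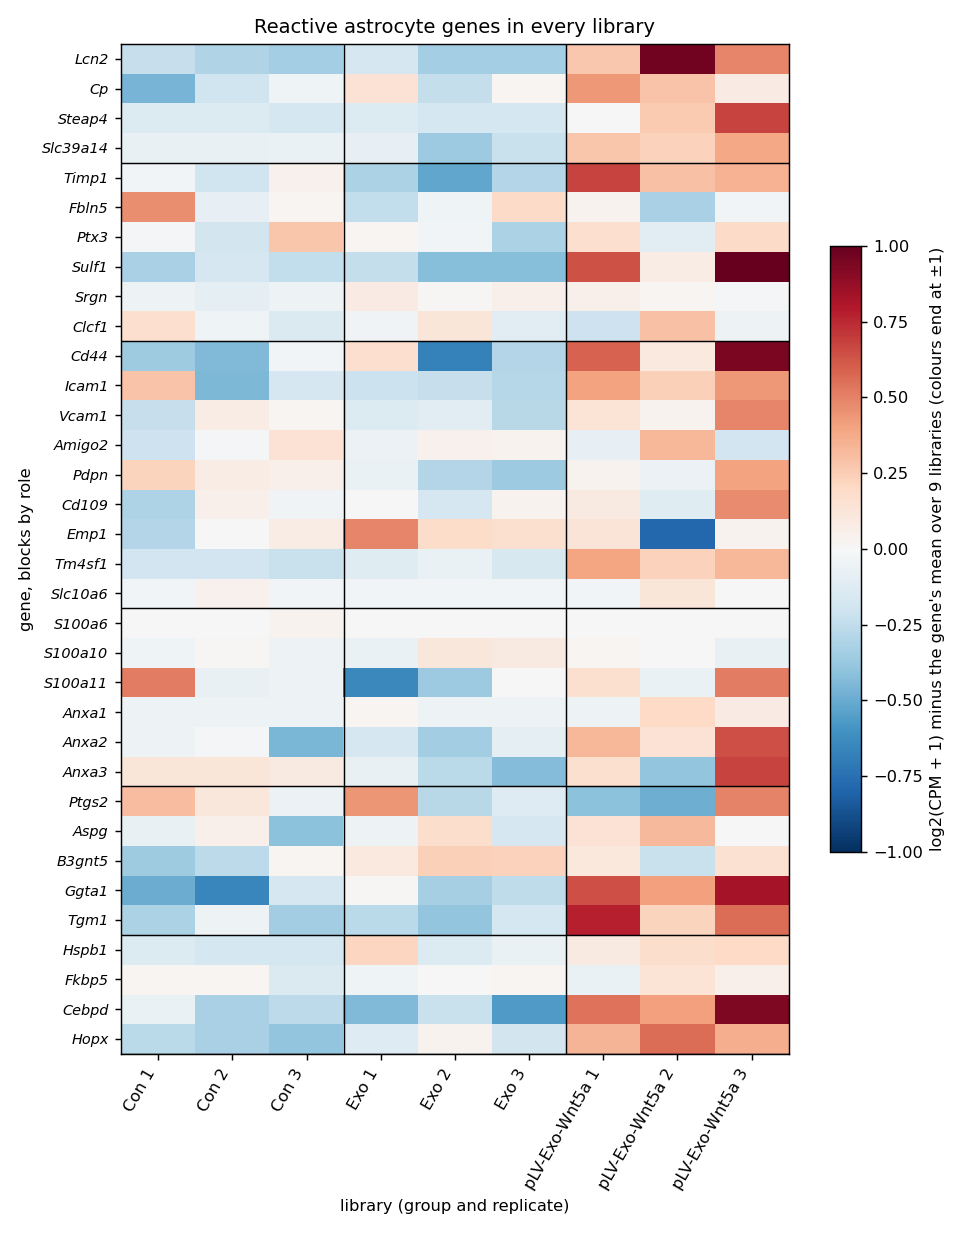
Each row is a reactive astrocyte gene and each column a library of Con, Exo or pLV-Exo-Wnt5a; the colour is log2(CPM + 1) minus the gene's mean over the 9 libraries, with the scale ending at 1 on either side. The 3 pLV-Exo-Wnt5a columns are the highest for 10 genes, among them Cebpd, Ggta1 and Timp1, and the third of them is the highest of its group for 16 of the 29 genes of this count.

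Among genes of the acute phase and of metal handling, 3 of 4 were tested. All 3 were higher in pLV-Exo-Wnt5a than in Exo, as were 51.4% of all genes tested. Lcn2, 1 of the 3, passed the filter through the pLV-Exo-Wnt5a libraries alone. Slc39a14 rose at Q under 0.05. Slc39a14 encodes a transporter that brings zinc, manganese and iron into the cell. Its levels were 59.96, 59.93 and 60.2 CPM in Con, 59.7, 48.9 and 54.0 CPM in Exo, and 76.8, 74.5 and 82.75 CPM in pLV-Exo-Wnt5a. All 3 libraries with the Wnt5a vector lay above the other 6. The log2 fold change was 0.54 (SE 0.08, Q = 0.0166) against Exo and 0.37 (SE 0.09, Q = 0.277) against Con. With each library left out in turn, Q against Exo lay between 0.00861 and 0.122, above 0.05 without the second Exo library or pLV-Exo-Wnt5a libraries 1 or 3.

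Lcn2 encodes lipocalin-2, a secreted protein that binds iron-carrying siderophores. It had 3, 1 and 0 counts in Con, 5, 0 and 0 in Exo, and 21, 54 and 32 in pLV-Exo-Wnt5a. The last of these lay well above the rest, and most of the other libraries were at or near 0. The summed counts, 107 against 5, gave a ratio to Exo of 21.6 after scaling (exact 95% interval 8.98 to 67.9, counting error only), and a ratio to Con of 25.1 (9.53 to 93.9). The fitted value against Exo, a log2 fold change of 4.36 (SE 0.88), had Q = 0.0653 and depends on the prior count. Without the first Exo library, which held all 5 counts of its group, it was 8.20 (Q = 0.0324). The Exo libraries left held 0 counts, so the prior count sets the size of that value. With any other library left out, Q lay between 0.114 and 0.316. DESeq2 gave an adjusted p of 0.00045, and Lcn2 was under 0.05 in 3 of 11 alternatives.

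Steap4, a metalloreductase of the cell and endosome membrane, failed the filter and was not tested. It had 5, 13 and 33 counts in pLV-Exo-Wnt5a, 1 in all of Exo and 2 in all of Con. Its ratio to Exo was 51.5 with an interval of 8.84 to 2070, which is too wide to give a size, and its ratio to Con was 24 (6.3 to 203). The third library with the Wnt5a vector gave most of these counts.

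Cp encodes ceruloplasmin, the copper-carrying ferroxidase. It stood at 0.130, 0.359 and 0.517 CPM in Con, 0.723, 0.322 and 0.581 CPM in Exo and 1.11, 0.902 and 0.654 CPM in pLV-Exo-Wnt5a. The pLV-Exo-Wnt5a libraries overlapped those of Exo but lay above those of Con, with a log2 fold change of 0.72 (SE 0.43, Q = 0.561) against Exo and 1.41 (SE 0.52, Q = 0.529) against Con.

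Of 6 listed genes for secreted and matrix proteins, 4 were tested and 3 were higher in pLV-Exo-Wnt5a than in Exo, with none at Q under 0.05 in edgeR. DESeq2 gave adjusted p-values of 0.0033 for Timp1 and 0.000117 for Sulf1, and edgeR without the filter gave Q = 0.011 and 0.000186. Timp1 was under 0.05 in 2 of 12 alternatives and Sulf1 in 4, and Q reached 0.322 and 0.318. Timp1 encodes an inhibitor of matrix metalloproteinases. Its levels were 1.14, 0.899 and 1.25 CPM in Con, 0.749, 0.520 and 0.783 CPM in Exo, and 2.47, 1.67 and 1.77 CPM in pLV-Exo-Wnt5a. The 3 groups did not overlap: Exo was lowest, Con lay between and pLV-Exo-Wnt5a was highest. Timp1 had a log2 fold change of 1.54 (SE 0.32, Q = 0.0691) against Exo and 0.84 (SE 0.31, Q = 0.529) against Con, and that of Exo against Con was -0.69 (SE 0.35, Q = 0.369).

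Sulf1 encodes an extracellular enzyme that trims sulfate groups from heparan sulfate. It was at 6.85, 7.75 and 7.30 CPM in Con, 7.36, 6.335 and 6.31 CPM in Exo, and 14.3, 9.38 and 20.3 CPM in pLV-Exo-Wnt5a. Every library with the Wnt5a vector lay above the other 6, with a spread among them wider than in either other group. Against Exo its log2 fold change was 1.15 (SE 0.23, Q = 0.0653), and it was 1.00 (SE 0.23, Q = 0.277) against Con. Ptx3, a long pentraxin of innate immunity, and Fbln5, an elastic-fibre protein, differed by 0.24 and -0.09 on the log2 scale, with levels of 3.54 to 5.84 and 1.78 to 3.81 CPM over the 9 libraries. Clcf1, a cytokine, had 30 summed counts in pLV-Exo-Wnt5a, 28 in Exo and 27 in Con, and Srgn, a proteoglycan of secretory granules, had 9, 12 and 2. Chil1, the chitinase-like protein also called Chi3l1, averaged 6.07 ± 0.892 CPM in pLV-Exo-Wnt5a, 4.81 ± 0.979 in Exo and 5.44 ± 0.775 in Con (SD, n = 3 each), and its Q against Exo was 0.534.

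**Figure D2:**
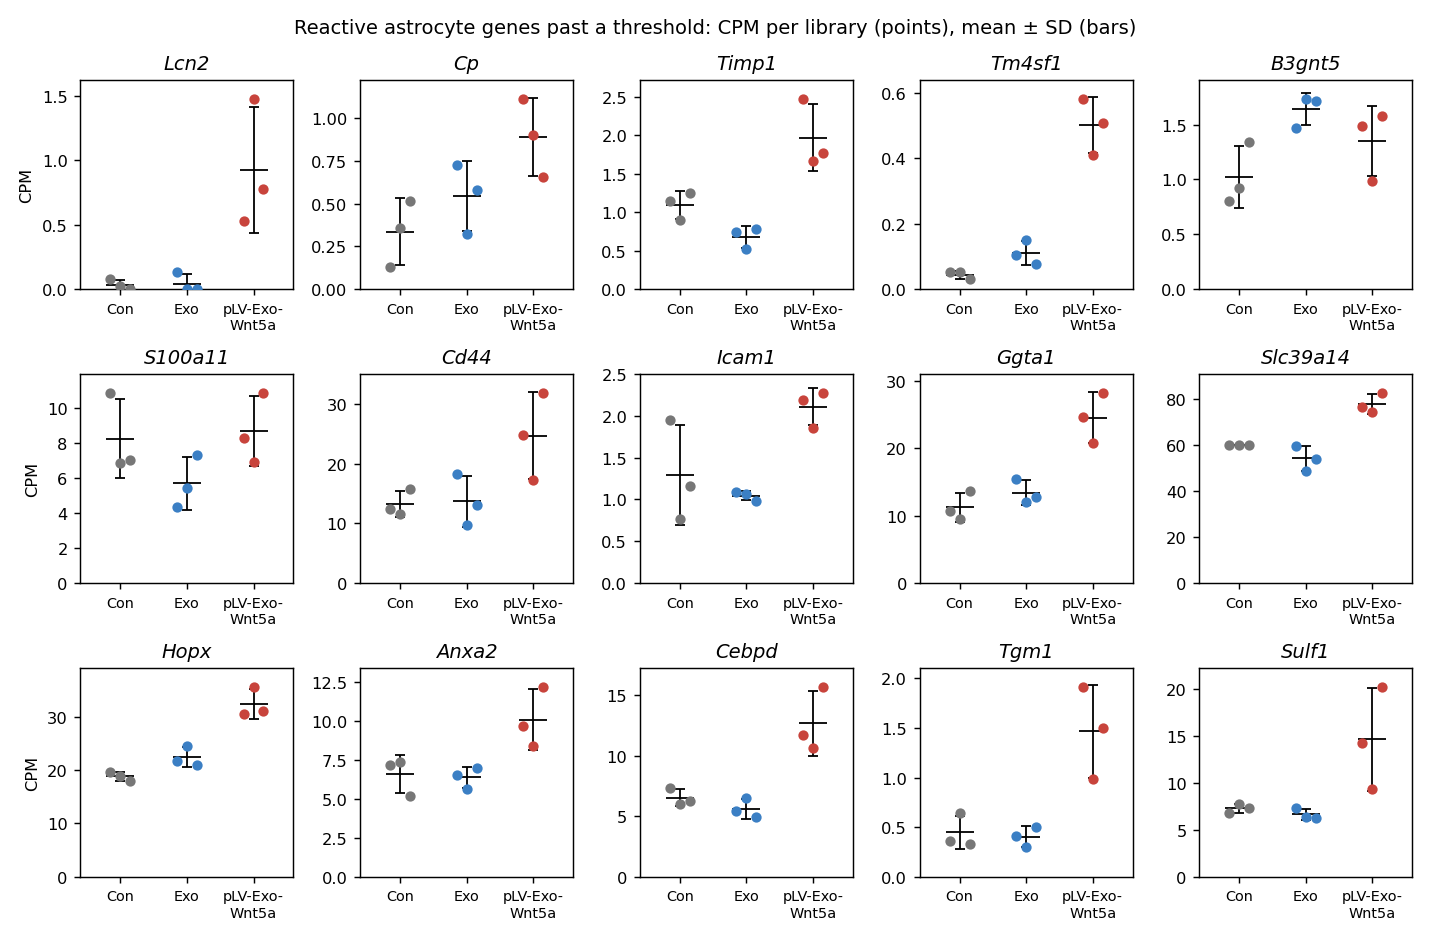
Each panel is a gene past a threshold in any comparison, with CPM on a linear axis from 0, 1 point for each library and black bars for the group mean ± SD (n = 3). The 3 pLV-Exo-Wnt5a points lie above all the others for Cebpd, at 10.6 to 15.7 CPM against 4.90 to 7.37 CPM, whereas those of B3gnt5 lie among the others.

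At the cell surface, 8 of 9 genes were tested, and 7 were higher in pLV-Exo-Wnt5a than in Exo. Tm4sf1, 1 of the 7, passed the filter through the pLV-Exo-Wnt5a libraries alone. None was at Q under 0.05 in edgeR. DESeq2 put Icam1, with an adjusted p of 0.0392, and Vcam1 under 0.05, and edgeR without the filter put Cd44, with Q = 0.00331, Pdpn and Vcam1 there. Cd44 was also there with a replicate block, with Q = 0.0391, though same-numbered libraries did not deviate together. Cd44 was under 0.05 in 2 of 12 alternatives and Icam1 in 1, and Q reached 0.478 and 0.401. Cd44 encodes the hyaluronan receptor. It was at 12.4, 11.6 and 15.8 CPM in Con, 18.3, 9.73 and 13.0 CPM in Exo, and 24.8, 17.3 and 31.9 CPM in pLV-Exo-Wnt5a. The second library with the Wnt5a vector fell below the first Exo library, so the groups overlapped. For Cd44 this gave a log2 fold change of 0.87 (SE 0.24, Q = 0.163) against Exo and 0.89 (SE 0.20, Q = 0.263) against Con.

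Icam1 encodes a ligand of leukocyte integrins. Its levels were 1.95, 0.770 and 1.16 CPM in Con, 1.09, 1.06 and 0.985 CPM in Exo, and 2.195, 1.86 and 2.28 CPM in pLV-Exo-Wnt5a. The Wnt5a libraries lay above those of Exo, and overlapped the first Con library. Icam1 differed by a log2 fold change of 1.03 (SE 0.26, Q = 0.134) against Exo and 0.70 (SE 0.35, Q = 0.630) against Con. Vcam1, another adhesion molecule for leukocytes, averaged 94.0 ± 16.2 CPM in pLV-Exo-Wnt5a and 70.6 ± 4.21 CPM in Exo (SD, n = 3 each), a log2 fold change of 0.43 (SE 0.11, Q = 0.136). For Pdpn, a mucin-type glycoprotein, the log2 fold change was 0.40 (SE 0.12, Q = 0.212).

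Tm4sf1, a surface protein with several membrane passes, was at 0.0519, 0.0514 and 0.0304 CPM in Con, 0.103, 0.148 and 0.0758 CPM in Exo, and 0.5804, 0.4102 and 0.509 CPM in pLV-Exo-Wnt5a. The pLV-Exo-Wnt5a libraries stood apart from the rest, and the Con libraries were below the floor of 3 counts. Summed counts were 59, 13 and 5 in pLV-Exo-Wnt5a, Exo and Con, a ratio of 4.59 to Exo (2.49 to 9.11) and of 11.1 to Con (4.49 to 35.4), with Q = 0.118 and 0.141 in the fits. Emp1, an epithelial membrane protein, was the member with the largest difference downward against Exo, -0.46 (SE 0.23, Q = 0.466), and its level was 9.26 ± 3.19 CPM against 12.9 ± 1.81 CPM (SD, n = 3 each). Cd109, a binding partner of TGF-beta receptors, and Amigo2, a leucine-rich adhesion protein, differed by 0.37 and 0.04 on the log2 scale. Slc10a6, a steroid sulfate transporter, was not tested, with 5, 0 and 2 summed counts in pLV-Exo-Wnt5a, Exo and Con.

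Among 6 S100 and annexin genes, whose products bind calcium, 4 were tested and 3 were higher in pLV-Exo-Wnt5a than in Exo, with none at Q under 0.05 in edgeR. For Anxa2, DESeq2 gave an adjusted p of 0.0132 and edgeR without the filter Q = 0.0193. It was under 0.05 in only these 2 of 12 alternatives, and Q reached 0.428. Anxa2, which links membranes to actin, was at 7.19, 7.395 and 5.17 CPM in Con, 6.56, 5.67 and 6.97 CPM in Exo and 9.69, 8.395 and 12.2 CPM in pLV-Exo-Wnt5a. All libraries with the Wnt5a vector lay above the other 6, with a log2 fold change of 0.67 (SE 0.16, Q = 0.116) against Exo and 0.61 (SE 0.20, Q = 0.504) against Con. S100a10, the partner of Anxa2 in a complex, differed by -0.06 on the log2 scale (SE 0.09), with 22.2 to 25.5 CPM over the 9 libraries. S100a11 was at 10.8, 6.856 and 6.999 CPM in Con, 4.31, 5.44 and 7.32 CPM in Exo and 8.28, 6.92 and 10.8 CPM in pLV-Exo-Wnt5a. Its groups overlapped in both comparisons of pLV-Exo-Wnt5a, with log2 fold changes of 0.62 (SE 0.22, Q = 0.297) against Exo and 0.07 (SE 0.23, Q = 0.952) against Con. Anxa3 differed by 0.63 (SE 0.31, Q = 0.471) against Exo, Anxa1 had 11, 2 and 0 summed counts in pLV-Exo-Wnt5a, Exo and Con, and S100a6 had 0, 0 and 1.

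Of 5 enzymes, 3 were higher in pLV-Exo-Wnt5a than in Exo, and Ggta1 rose at Q under 0.05. Ggta1 encodes the galactosyltransferase that makes the alpha-Gal sugar of most mammals, and it is an A1 panel gene. Its levels were 10.6, 9.42 and 13.6 CPM in Con, 15.48, 11.98 and 12.75 CPM in Exo, and 24.7, 20.7 and 28.2 CPM in pLV-Exo-Wnt5a. The libraries with the Wnt5a vector lay above the other 6. The log2 fold change was 0.89 (SE 0.14, Q = 0.0186) against Exo and 1.12 (SE 0.17, Q = 0.0285) against Con, where it was the only member that was a DEG. Q against Exo lay between 0.00906 and 0.159 with 1 library left out, above 0.05 without Exo libraries 2 or 3 or pLV-Exo-Wnt5a libraries 1 or 3. Against Con it lay between 0.00863 and 0.277, and below 0.05 only without the third Con library.

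Tgm1 encodes a transglutaminase that cross-links proteins. It was at 0.363, 0.642 and 0.335 CPM in Con, 0.413, 0.297 and 0.505 CPM in Exo and 1.92, 0.984 and 1.50 CPM in pLV-Exo-Wnt5a. The last group lay wholly above the others. In the fits, the log2 fold change was 1.86 (SE 0.40, Q = 0.0755) against Exo and 1.70 (SE 0.42, Q = 0.340) against Con. DESeq2 gave an adjusted p of 0.00444 against Exo, and edgeR without the filter Q = 0.011. Tgm1 was under 0.05 in only these 2 of 12 alternatives, and Q reached 0.345. B3gnt5, an enzyme of glycosphingolipid synthesis, was at 0.804, 0.924 and 1.34 CPM in Con, 1.47, 1.73 and 1.72 CPM in Exo and 1.49, 0.984 and 1.57 CPM in pLV-Exo-Wnt5a. Exo lay above Con, and pLV-Exo-Wnt5a overlapped both, with a log2 fold change against Exo of -0.27 (SE 0.29, Q = 0.785). Aspg, an asparaginase, differed by 0.52 (SE 0.48). Ptgs2, a cyclooxygenase of prostaglandin synthesis, differed by -0.19 (SE 0.61), with 0.355 to 1.67 CPM over the 9 libraries.

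Of 4 genes for proteins that act inside the cell, all were higher in pLV-Exo-Wnt5a than in Exo, and Cebpd and Hopx rose at Q under 0.05. Cebpd encodes C/EBP-delta, a transcription factor of the acute phase response. Its levels were 7.37, 5.98 and 6.30 CPM in Con, 5.45, 6.48 and 4.90 CPM in Exo, and 11.7, 10.6 and 15.7 CPM in pLV-Exo-Wnt5a. The lowest Wnt5a library lay above the highest of the other 6. The log2 fold change was 1.19 (SE 0.18, Q = 0.0163) against Exo and 0.95 (SE 0.18, Q = 0.150) against Con. Without the second Exo library Q against Exo was 0.0619, without the first pLV-Exo-Wnt5a library it was 0.0510, and without the third pLV-Exo-Wnt5a library the log2 fold change was 1.00, just under the limit for a DEG.

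Hopx encodes a small homeodomain protein that does not bind DNA and is found in astrocyte-lineage stem cells. It was at 19.7, 18.9 and 17.95 CPM in Con, 21.8, 24.5 and 21.0 CPM in Exo, and 30.6, 35.6 and 31.0 CPM in pLV-Exo-Wnt5a. The 3 groups did not overlap, with Con lowest. The log2 fold change was 0.54 (SE 0.10, Q = 0.0451) against Exo, 0.77 (SE 0.12, Q = 0.0360) against Con, and 0.24 (SE 0.12, Q = 0.351) for Exo against Con. Q against Exo was above 0.05 whichever library was left out, at 0.0831 to 0.113, and against Con it lay between 0.0174 and 0.268, below 0.05 only without the first Con library. Fkbp5, a co-chaperone of steroid receptors, differed by 0.06 (SE 0.08) against Exo. Hspb1, a small heat shock protein, had 30, 16 and 1 summed counts in pLV-Exo-Wnt5a, Exo and Con, and a log2 fold change of 0.91 (SE 0.76, Q = 0.700) against Exo.

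**Figure D3:**
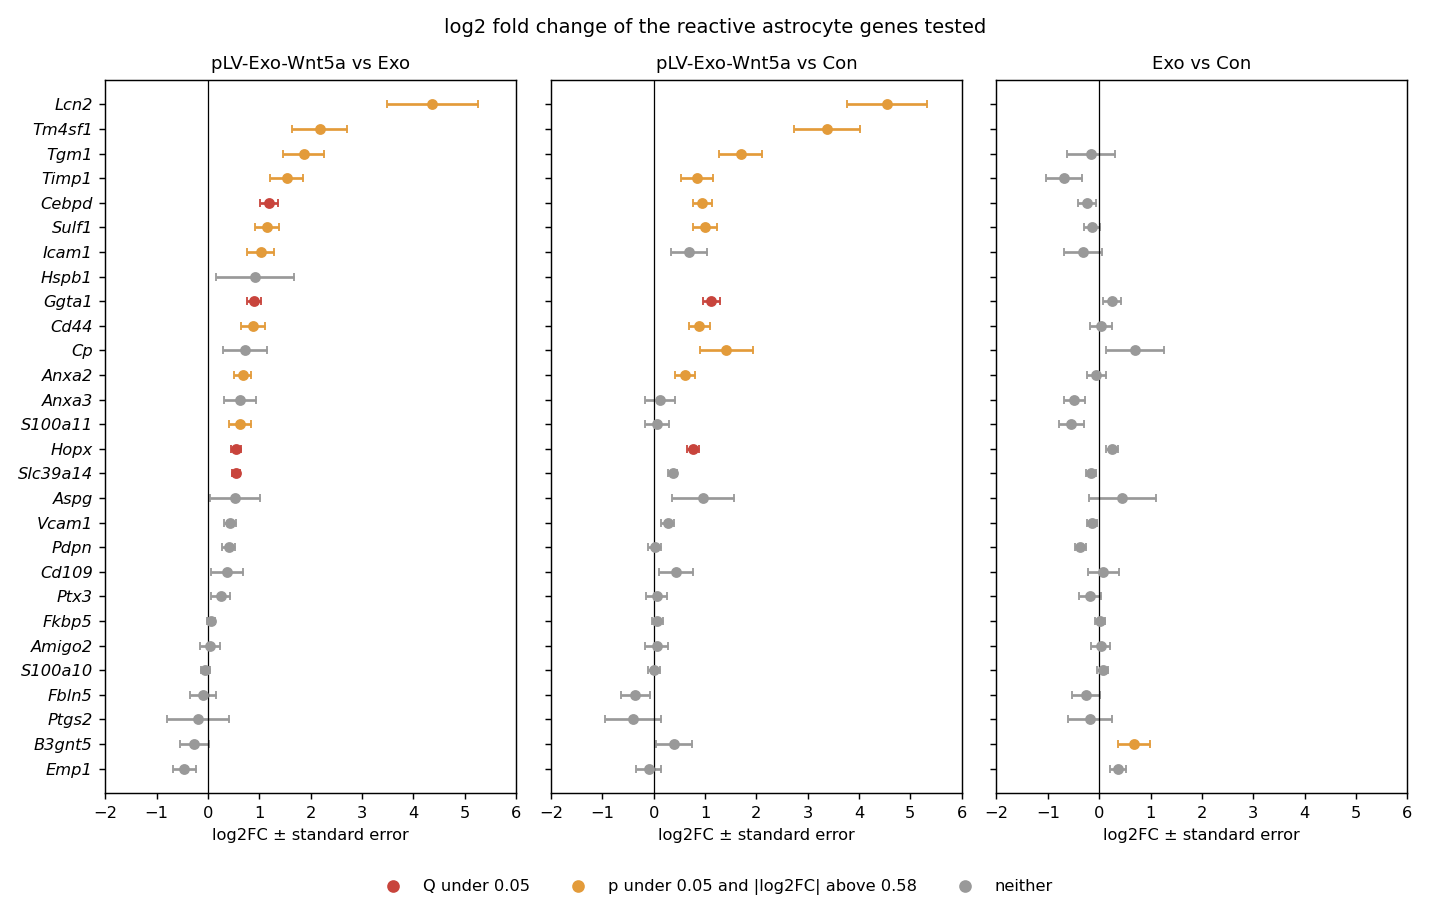
Points are log2 fold changes of the reactive astrocyte genes tested, with bars of 1 SE, for pLV-Exo-Wnt5a against Exo, pLV-Exo-Wnt5a against Con and Exo against Con; red marks Q under 0.05, orange the looser threshold alone and grey neither. Most points of the first 2 comparisons lie right of 0, with medians of 0.58 and 0.43, and those of Exo against Con lie on both sides of it, with a median of -0.14.

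Against Con, 27 members were tested in pLV-Exo-Wnt5a, with 24 higher and 3 lower and a median log2 fold change of 0.43, which was 0.68 without the first Con library. Ggta1 was a DEG, as were 0.0663% of all genes, and Ggta1 and Hopx rose at Q under 0.05, as did 0.0795% of all genes. DESeq2, edgeR without the filter and edgeR with a replicate block each put 6 members under 0.05 after adjustment. They were Ggta1 and Hopx with Cd44, Cebpd, Lcn2 and Sulf1. All 6 were higher, as were 0.329%, 0.238% and 0.199% of all genes in those fits. The block is by replicate number, and same-numbered libraries did not deviate together. Without the second Con library, or without any 1 of the pLV-Exo-Wnt5a libraries, 0 members were at Q under 0.05. Without the first or the third Con library the number was 1. At the looser threshold 11 members were higher and 0 lower, against 1.46% of all genes higher and 0.696% lower. The pLV-Exo-Wnt5a libraries lay wholly above those of Con for 12 of the 27 members, against 7.67% of all genes, and wholly below for 0, against 9.41%. Among the 23 members with at least 10 counts in every library of this comparison, 20 were higher, with a median of 0.37, and 8 passed the looser threshold upward, against 1.17% of all genes so counted. Icam1 and S100a11 passed that threshold against Exo only, and Cp and Hopx against Con only; whether those effects differed was not tested, and the comparisons share the pLV-Exo-Wnt5a libraries.

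Set against all 6 other libraries at once, the 3 of pLV-Exo-Wnt5a were highest for 10 of the 29 members that passed the filter over all 9 libraries (34.5%), against 1.91% of all genes: Lcn2, Timp1, Tm4sf1, Ggta1, Slc39a14, Hopx, Anxa2, Cebpd, Tgm1 and Sulf1. They were lowest for 0 members, against 2.11% of all genes. Lcn2 and Tm4sf1, which are among the 10, passed that filter through these 3 libraries. Among the 23 members with at least 10 counts in all 9 libraries the count was 8 (34.8%), against 1.87% of all genes so counted. Within the pLV-Exo-Wnt5a group, the second library was the lowest for 20 of the 29 members (69.0%, against 36.8% of all genes) and the third the highest for 16 (55.2%, against 37.2%). The median over the 29 members of log2(CPM + 1), centred on each gene's mean, was -0.075, -0.077 and -0.059 in Con, -0.069, -0.226 and -0.170 in Exo, and 0.162, 0.148 and 0.383 in pLV-Exo-Wnt5a. The members thus stood highest in the third pLV-Exo-Wnt5a library and lowest in the second Exo library.

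In Exo against Con, members lay on both sides of 0. Of 25 members tested, 11 were higher and 14 lower in Exo, with a median log2 fold change of -0.14, which was 0.01 without the second Exo library. None was a DEG by edgeR's quasi-likelihood test, and DESeq2 also gave 0. An unadjusted p under 0.05 was found for 4 of the 25 members and for 14.9% of all genes, a like share. DEGs made up 0.00664% of all genes, which was 1 gene. That number was 138 without the third Con library, 50 in edgeR without the filter and 29 with DESeq2, which was run without that filter, with 0 members among them each time. B3gnt5 alone passed the looser threshold upward, at a log2 fold change of 0.68 (SE 0.31, Q = 0.334), against 3.56% of all genes, and 0 members passed it downward, against 0.909%. B3gnt5 no longer passed with DESeq2, without the filter, with a replicate block or when a library other than the third Con library was left out. Exo lay wholly above Con for 3 members, Emp1, B3gnt5 and Hopx, against 10.9% of all genes, and wholly below for 4, Pdpn, Anxa3, Timp1 and Slc39a14, against 12.4%. Besides B3gnt5, the members at an unadjusted p under 0.05 were Pdpn, at -0.37 (SE 0.10, Q = 0.265), Emp1, at 0.37 (SE 0.16, Q = 0.316), and Anxa3, at -0.49 (SE 0.21, Q = 0.317).

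The members were also read by panel. In pLV-Exo-Wnt5a against Exo, 6 of 7 pan-reactive members were tested and all 6 were higher, with a median log2 fold change of 0.89. The A1 members had a median of 0.05, with 3 of 4 tested higher, and the A2 members a median of 0.09, with 4 of 8 higher. Leaving out members with fewer than 10 counts in some library of this comparison, which takes Lcn2 and Hspb1 from the first panel and Tm4sf1 from the last, 4 of 4 pan-reactive members were higher, with a median of 0.80, and 3 of 7 A2 members, with a median of -0.06. The 10 tested members that are on none of these panels, such as Cebpd and Sulf1, were all higher, with a median of 0.62. Differences between panels were not tested. Genes of the same panels that are not members were higher in 14 of 14 tested, with a median of 1.05. Of these, 4 were DEGs, as were 0.159% of all genes. The 14 include the A1 genes H2-T23 (0.69), H2-D1 (0.94), Psmb8 (1.35), Serping1 (1.52) and Gbp2 (1.52). The A1 median of members thus does not stand for the whole A1 panel. Against Con the panel genes that are not members were higher in 13 of 14, with a median of 0.89. In Exo against Con they were higher in 2 of 14, with a median of -0.25. Among members tested in pLV-Exo-Wnt5a against Con, 5 of 5 pan-reactive, 3 of 4 A1 and 6 of 8 A2 genes were higher. The medians were 0.96, 0.07 and 0.23, with Lcn2 and Tm4sf1 among these genes.

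**Figure D4:**
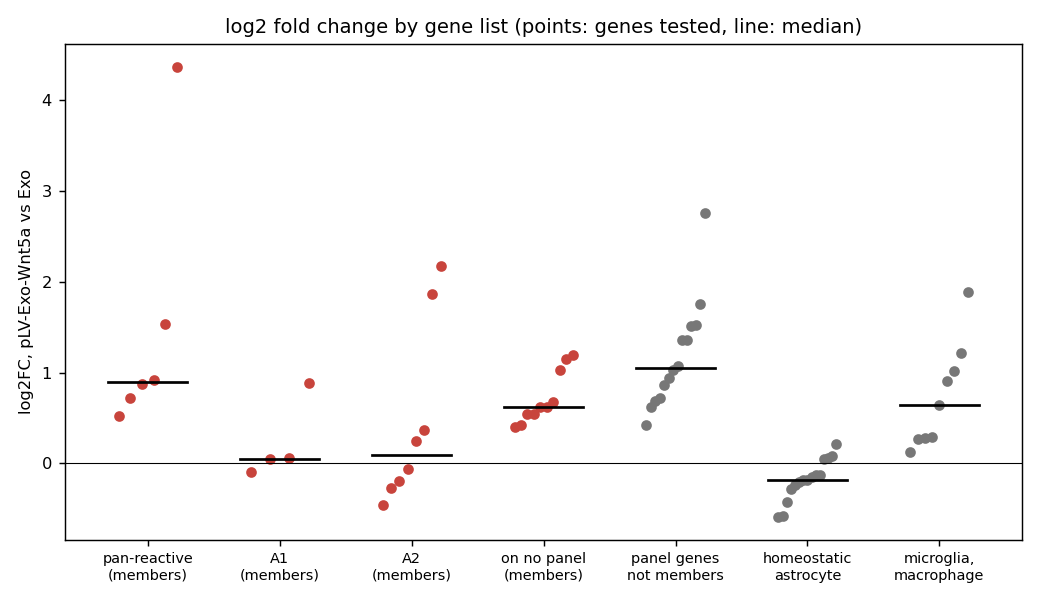
Each point is a gene's log2 fold change in pLV-Exo-Wnt5a against Exo, grouped by gene list, with the list's median as a line. Pan-reactive members have a median of 0.89 and A1 and A2 members medians of 0.05 and 0.09. Panel genes that are not members, A1 genes among them, have a median of 1.05. The markers of resting astrocytes have a median of -0.18. Lcn2, a pan-reactive member, and Tm4sf1, an A2 member, passed the filter through the pLV-Exo-Wnt5a libraries alone.

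Markers of other cell types were read beside these results. Resting astrocyte markers were higher in 4 of 15 tested genes in pLV-Exo-Wnt5a against Exo, with a median of -0.18. At the looser threshold 0 were higher and 1 was lower, Slc4a4, a bicarbonate cotransporter, at a log2 fold change of -0.59 (SE 0.11, Q = 0.0563). The 12 listed microglial markers summed to 24.22 to 28.44 CPM in pLV-Exo-Wnt5a, 12.38 to 14.92 CPM in Exo and 18.5 to 23.49 CPM in Con. Lyz2, the lysozyme of myeloid cells, gave much of that sum, and without it the other 11 summed to 10.87 to 13.64, 7.286 to 8.34 and 10.58 to 13.42 CPM, so that pLV-Exo-Wnt5a lay above Exo and overlapped Con. All 9 of those tested were higher in pLV-Exo-Wnt5a than in Exo, with a median of 0.65. Lyz2 was the only DEG among them, at a log2 fold change of 1.21 (Q = 0.0113). At the looser threshold 4 were higher and 0 lower, Lyz2 with Csf1r, a receptor that these cells need to survive, at 1.88 (Q = 0.064), Itgam at 1.02 (Q = 0.390) and Ctss at 0.91 (Q = 0.197). Against Con 7 of 9 were higher, with Cx3cr1 at -1.40 (Q = 0.524) and Tyrobp at -0.24. In Exo against Con 0 of 9 were higher, with a median of -0.50. There 3 passed the looser threshold downward, Cx3cr1 at -2.04, Csf1r at -1.59 and Lyz2 at -0.60, each with Q = 0.265. No microglial marker was at the floor in all libraries, and the part of such cells in the result was not tested. Of 10 neuronal markers 4 were higher and 6 lower in pLV-Exo-Wnt5a against Exo, with a median of -0.01. Dcx, a microtubule protein of young neurons, fell by 0.60 on the log2 scale (Q = 0.0113). In pLV-Exo-Wnt5a against Con 8 of 10 were higher, with a median of 0.15, and Dcx was at -0.05. In Exo against Con 9 of 10 were higher, with a median of 0.29, and Dcx was at 0.56 (Q = 0.275). Of 8 neural stem cell markers 5 were higher in pLV-Exo-Wnt5a against Exo, with a median of 0.04, and Nes at 0.54 (Q = 0.212) differed most. Of 7 oligodendrocyte markers tested 3 were higher in that comparison, with a median of -0.08, and Mbp at 0.57 (Q = 0.161) differed most. The part of these cells in the result was likewise not tested. Fibroblast and mural markers summed to 141.7 to 155.2 CPM in pLV-Exo-Wnt5a and 161.7 to 171.6 CPM in Exo. Thy1, which neurons also express, made up most of that sum, with means of 117 and 138 CPM, and 4 of the 8 markers tested were higher and 4 lower, with a median log2 fold change of 0.02. Acta2, the smooth muscle actin, was the only 1 of them past the looser threshold, upward, at 1.51 (SE 0.35, Q = 0.102). Of 7 endothelial markers, 6 were in the table and Cdh5 and Emcn were at the floor, and their sum overlapped between groups.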

How the data were processed

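RNA was sequenced from 9 libraries, 3 in each of 3 groups. The authors deposited a table of estimated read counts per gene, not normalized. The submitters' processing notes name Bowtie2, RSEM 1.3.1 and DESeq2 1.4.5, while the study's methods name HISAT2 as the aligner; the genome build is not given in the sources used here. The deposited counts were whole numbers and were used as they stand. Genes were tested in edgeR 4.0.16 (R 4.3.3) on the 6 libraries of each comparison, with TMM scaling, filterByExpr, glmQLFit, glmQLFTest and Benjamini-Hochberg adjustment over all genes tested. A DEG, as in the study, had Q under 0.05 and changed by more than 2-fold up or down (ratio under 0.5). Alternatives were RLE scaling, no filter, at least 10 counts in every library, DESeq2 1.42.0, a fit on all 9 libraries, a replicate block and leaving out each library. Ratios of summed counts carry exact intervals for counting error only. Depth was 32765138 to 40427647 counts per library. The genes and lists were chosen with earlier results of these data known. Values in every library are given for genes past an unadjusted p under 0.05 with an absolute log2 fold change above 0.58 in any comparison and for DEGs. Those of Slc39a14 and Steap4 were added after their values were seen. The code was tested on simulated data.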

Additional observations from a re-analysis of the deposited data

How the results depend on the processing

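In pLV-Exo-Wnt5a against Exo, the number of members that were DEGs was 1, and it was 6 with no filter on low counts, 6 with DESeq2, and 0 to 2 when a library was left out, with 0 without Exo replicate 2, pLV-Exo-Wnt5a replicate 1 or pLV-Exo-Wnt5a replicate 3. In pLV-Exo-Wnt5a against Con it was 1, and it was 3 with no filter, 2 with DESeq2 and 0 to 1 when a library was left out, with 0 without Con replicates 1 or 2 or any of the 3 pLV-Exo-Wnt5a libraries. In Exo against Con it was 0 in all of these. At the looser threshold the number was 11 against Exo (10 to 14 when a library was left out) and 11 against Con (11 to 13), and no alternative moved either by over 1.5 times. In Exo against Con it was 1, and it was 0 with DESeq2, 2 in the fit on all 9 libraries and 0 to 2 when a library was left out. The median log2 fold change of Exo against Con turned from -0.14 to 0.0105 without Exo replicate 2, over a range of -0.13 to 0.01 when each library was left out, and that of pLV-Exo-Wnt5a against Exo was 0.49 without pLV-Exo-Wnt5a replicate 3. That of pLV-Exo-Wnt5a against Con, 0.43, was 0.66 with no filter, 0.65 with DESeq2 and 0.30 to 0.68 when a library was left out. The causes were not tested. Cebpd kept Q under 0.05 against Exo in 10 of 12 alternatives, Slc39a14 in 9, Ggta1 in 7 and Hopx in 5, and against Con Ggta1 and Hopx in 7 each. All of these values kept their direction.

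Libraries share replicate numbers, but same-numbered libraries did not deviate together, with correlations of -0.424 to 0.191, so the numbers do not pair them. With the replicate block the number of DEGs was 2 against Exo, 2 against Con and 0 in Exo against Con, and 0 members passed the looser threshold in Exo against Con. Few counts limit what can be read for Lcn2, Steap4, Tm4sf1, Hspb1, Anxa1, Srgn, Clcf1, Slc10a6 and S100a6. Why their counts were few was not tested.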

Other observations

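The 4 genes of the same panels with the smallest p in pLV-Exo-Wnt5a against Exo, none of them among the genes described above, were Gfap, H2-D1, S1pr3 and Serpina3n. Gfap, the intermediate filament of astrocytes, averaged 4026 ± 55.7 CPM in pLV-Exo-Wnt5a, 2234 ± 38.0 CPM in Exo and 2539 ± 446 CPM in Con (SD, n = 3 each). Serpina3n, a secreted protease inhibitor, averaged 241 ± 21.8, 35.9 ± 0.944 and 46.8 ± 16.1 CPM. S1pr3, a sphingosine phosphate receptor, averaged 27.6 ± 4.73, 8.23 ± 0.657 and 12.5 ± 1.93 CPM, and H2-D1, an MHC class I gene, 217 ± 19.4, 114 ± 5.26 and 131 ± 10.7 CPM. The pLV-Exo-Wnt5a libraries lay above the other 6 for each of the 4.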
